A study of Rattus norvegicus with 54 samples.

Results

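The genes described here are the rat genes whose symbols carry the Nduf prefix of mitochondrial complex I followed by the subunit letter or the assembly factor code and a number. Of 40319 genes in the deposited count tables, 53 matched. By their known roles, 37 code for nuclear-encoded structural subunits (7 core and 30 accessory), 8 code for the assembly factors Ndufaf1 to Ndufaf8, and 8 are other matches: Ndufa4, Ndufa4l2, the paralog Ndufa10l1 and 5 pseudogenes. Membership followed from the symbol and not from a measured value of the gene.

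Complex I takes electrons from NADH, passes them through a flavin and a chain of iron-sulfur clusters to ubiquinone, and pumps protons across the inner mitochondrial membrane. The nuclear-encoded core subunits carry the redox centers and the ubiquinone site in the arm that reaches into the matrix. The accessory subunits wrap and stabilize both arms, and the assembly factors build the enzyme in modules without remaining in it. Cardiomyocytes are packed with mitochondria, and complex I is a main entry point of electrons from fuel oxidation in the beating heart. The subunits encoded by mitochondrial DNA were not analysed here.

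RNA came from the hearts of 18 female athymic rats (F344/NJcl-rnu/rnu, aged 8 weeks), which lack T cells and so accept human grafts. The 6 sham-operated animals had no infarct, 6 had an untreated myocardial infarction (MI) from permanent ligation of the left anterior descending artery, and 6 had the same ligation with a bi-level sheet of human smooth muscle cells and endothelial progenitor cells placed on the epicardium 15 min later (MI + Cell Sheet). Hearts were taken 1 week after surgery and divided into infarct, border and remote left ventricular zones, which in sham hearts are the matching positions, giving 54 libraries in 9 groups of 6. The labels name the samples of a group technical replicates while the study describes separate animals, so the p-values measure the spread between these samples, and alignment was to the rat genome although the grafted cells were human.

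Reads assigned to genes numbered 12699200 to 23397750 per library. Of the 37 structural genes, 36 had enough counts in every comparison, and Ndufs6 (0 to 20 counts per library) was tested only for MI against sham in the border zone. All 8 assembly factor genes were tested throughout. Among the other matches, Ndufa10l1 had 3 to 45 counts per library and was tested in 8 of the 9 pairwise comparisons, Ndufv3-ps1 (5 to 56 counts) in all 9, Ndufs5-ps1 in 1, and the other 3 pseudogenes in none. Below, the level of a gene is in CPM (counts scaled to the same library size), the level of a class is the mean of log2(CPM + 0.1) over its genes in a library, and a change is the log2 fold change of edgeR's quasi-likelihood fit ± its standard error. A gene was called when its p-value, adjusted over all genes tested, was under 0.05.

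Some libraries stood apart. Sham replicate 5 was the lowest of the sham animals for the structural and assembly levels in all 3 zones, and replicate 1 of the MI + Cell Sheet group was the lowest of that group in the border and remote zones. The 11 cardiomyocyte markers (contractile and related genes) were detected in all 54 libraries. Their mean level on the same log2 scale had medians of 12.46 in sham, 10.13 in MI and 8.14 in MI + Cell Sheet in the infarct zone. The border medians were 12.45, 11.01 and 11.01 and the remote medians 12.58, 11.68 and 12.35, in the same order of groups.

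One week after infarction, the structural and assembly factor genes were lower in the infarct zone. All 36 structural genes tested and all 8 assembly factor genes were lower in untreated MI than in sham, where 27.2% of all genes tested were called lower. The median change was -1.64 for structural genes (range -2.11 to -1.06) and -1.32 for assembly factor genes (range -1.72 to -0.47), against -0.02 over all genes tested. The structural level was 8.71 ± 0.50 in sham and 6.84 ± 0.93 in MI (SD, n = 6 each), with one group running from 7.70 to 9.07 and the other from 5.71 to 8.30, so the animals overlapped. All 11 cardiomyocyte markers were also lower, by a median of -1.79, and in bulk tissue fewer cardiomyocytes and less of these RNAs per cardiomyocyte cannot be told apart.

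Ndufv2, which holds an iron-sulfur cluster next to the NADH-oxidizing site, had the lowest fold change of the structural genes. Its CPM had a lowest, median and highest value of 546, 1290 and 1422 in sham and of 72.6, 200.1 and 701 in MI, a fall of 2.11 ± 0.49 on the log2 scale (adjusted p = 0.0048). Only the highest MI animal, replicate 1, reached above the lowest sham animal. Ndufs1, the largest core subunit and carrier of several iron-sulfur clusters, ran from 410 through 1143 to 1317 CPM in sham and from 86.7 through 208 to 498 in MI (change -1.99 ± 0.46, adjusted p = 0.0045). Other core genes were lower as well, among them Ndufv1 (-1.64), which binds NADH and the flavin, and the iron-sulfur subunits Ndufs3 (-1.83), Ndufs7 (-1.67) and Ndufs8 (-1.56). At the other end stood Ndufb2, an accessory subunit of the distal membrane arm, with a median of 281 CPM in sham and 107 in MI (-1.06 ± 0.35, adjusted p = 0.025). The parts of the enzyme moved by similar amounts, with median changes of -1.68 in the NADH-oxidizing module, -1.66 in the ubiquinone module, -1.57 in the proximal membrane arm and -1.62 in the distal one.

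**Figure D1:**
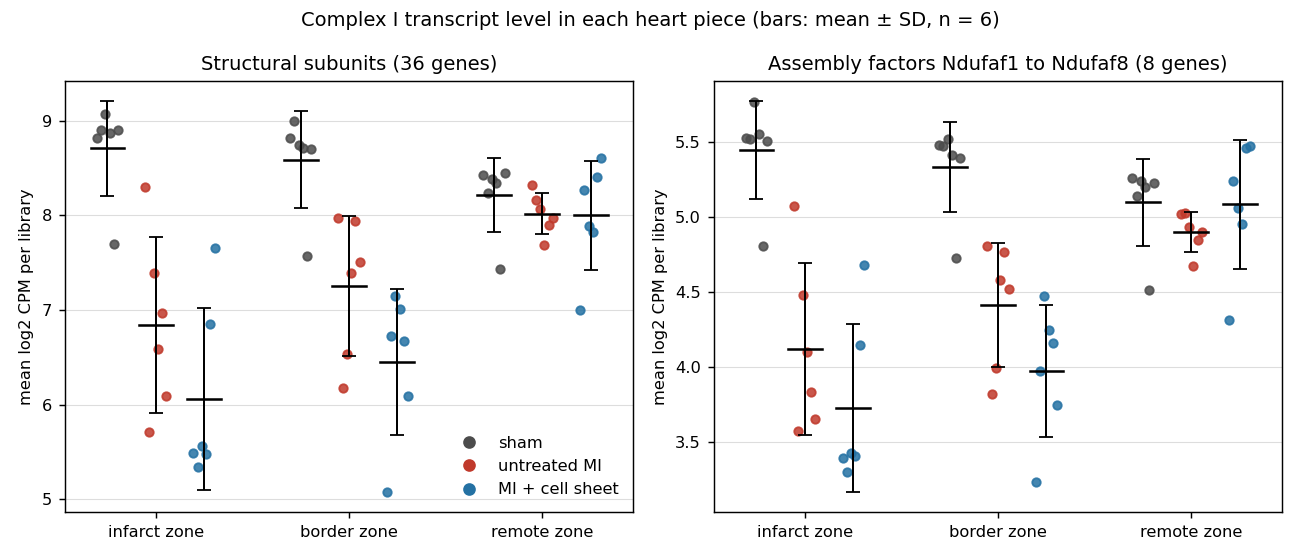
Class levels by library. Points are single libraries, plotted as mean log2(CPM + 0.1) of the 36 structural genes (left) and the 8 assembly factor genes (right) by zone (horizontal axis) and group (color), and the horizontal bars are group means with vertical bars of 1 SD (n = 6). In the infarct zone the structural means fall from 8.71 in sham to 6.84 in MI and 6.06 in MI + Cell Sheet, while in the remote zone the means are 8.21 in sham and 8.02 in MI and all 3 groups overlap.

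Among the assembly factors, Ndufaf6, which acts early, had the largest fall in the infarct zone, from a median of 32.3 CPM in sham to 8.3 in MI (-1.72 ± 0.36, adjusted p = 0.0029). Ndufaf7, a methyltransferase of the mitochondrial matrix, had the smallest, from 30.4 to 22.3 CPM (-0.47 ± 0.15, adjusted p = 0.019). Between them lay Ndufaf8 (-1.52) and its partner Ndufaf5 (-1.05), a hydroxylase of the core subunit Ndufs7, as well as Ndufaf4 (-1.43), Ndufaf2 (-1.37), Ndufaf3 (-1.27) and Ndufaf1 (-1.15), and all 8 passed the test.

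The border zone of untreated hearts was compared with sham in the same way. All 37 structural genes and 7 of 8 assembly factor genes were lower in MI than in sham (23.2% of all genes tested were called lower), with median changes of -1.25 and -0.88. Ndufb10, a disulfide-bonded accessory subunit of the membrane arm, went from 131, 324 and 349 CPM (lowest, median, highest) in sham to 44.8, 113 and 158 in MI (-1.52 ± 0.34, adjusted p = 0.0058), with an overlap of the groups only through sham replicate 5. Ndufs7, which carries the last iron-sulfur cluster before ubiquinone, changed by -1.51, and the sparsely counted Ndufs6, named here after its values were seen, by -1.54. Ndufa2, an accessory subunit of the NADH-oxidizing module, had the smallest structural change (-0.92 ± 0.30, adjusted p = 0.029). Ndufaf7 was the assembly factor that did not pass the test (-0.23 ± 0.14, adjusted p = 0.20), at 23.4 to 29.8 CPM in sham and 17.4 to 28.3 in MI. All 11 cardiomyocyte markers were lower here too (median -1.54).

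**Figure D2:**
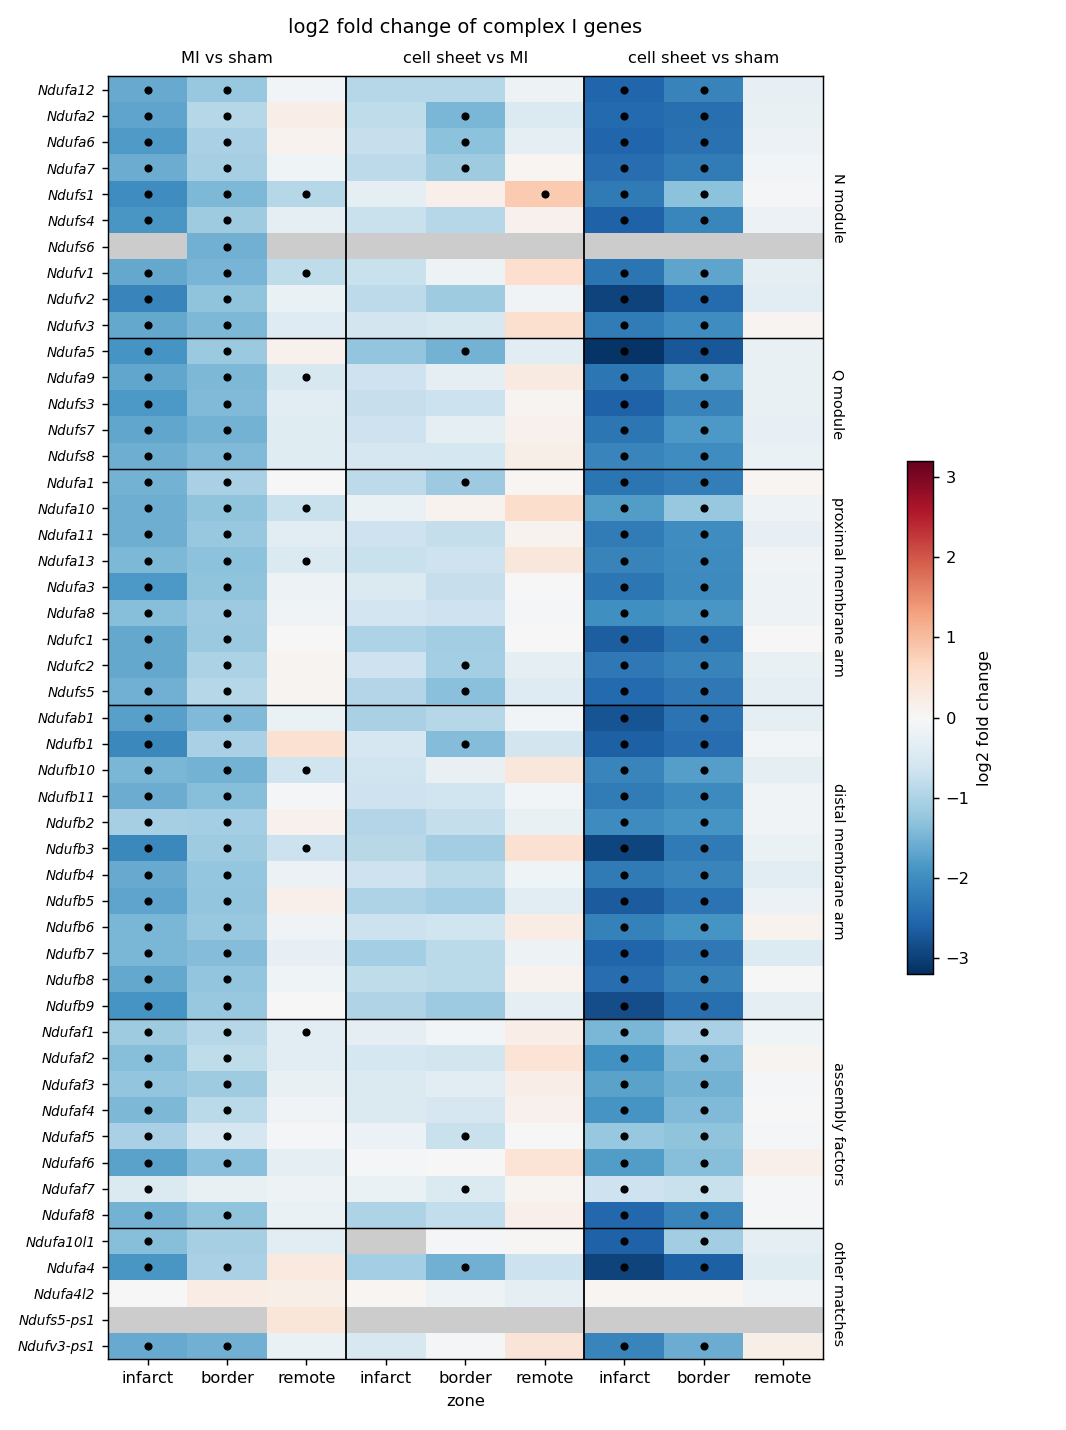
Change by gene. Rows are genes grouped by the part of the enzyme they belong to, columns are the 3 zones of each comparison, the color is the log2 fold change (blue lower, red higher in the first-named group), dots mark an adjusted p under 0.05 and gray marks genes not tested. For MI against sham the dots fill the infarct and border columns of the structural genes, apart from Ndufs6, which was not tested in the infarct zone, and thin out in the remote column, and MI + Cell Sheet against sham in the remote zone has none.

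Far from the infarct, fewer genes passed the test. In the remote zone 8 of 36 structural genes and 1 of 8 assembly factor genes were lower in MI than in sham and none was higher (25.8% of all genes tested were called, 14.2% as lower), and the median changes were -0.18 and -0.23. The core genes took 3 of the 8 structural calls. Ndufs1 fell most, with every MI animal but one (replicate 2, at 801 CPM) below the lowest sham animal, from 677, 1230 and 1369 CPM in sham to 465, 621 and 801 in MI (-0.90 ± 0.17, adjusted p = 0.0030). Ndufv1 went from a median of 980 to 509 CPM (-0.82 ± 0.19, adjusted p = 0.0073). Of the accessory genes, Ndufa10, a kinase-like subunit of the proximal membrane arm, fell by 0.71 ± 0.16 on the log2 scale (adjusted p = 0.0080) and Ndufb10 by 0.64 ± 0.18 (adjusted p = 0.021). Further accessory calls, named after their values were seen, were Ndufb3 (-0.69), Ndufa9 (-0.52) and Ndufa13 (-0.46), and the assembly factor was Ndufaf1 (-0.36 ± 0.11, adjusted p = 0.034), which acts on the membrane arm.

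Not every accessory gene had a value below 0 in the same libraries, although none was called higher. Ndufb1, a small subunit of the distal membrane arm, had 23.1, 28.4 and 43.4 CPM in sham and 33.3, 45.5 and 56.7 in MI, with overlapping groups (0.49 ± 0.18, adjusted p = 0.064). The core level minus the accessory level was 1.20 ± 0.08 in sham and 0.83 ± 0.10 in MI (SD, n = 6 each). The groups did not overlap (1.08 to 1.32 and 0.69 to 0.98). The size of this difference depends on transcript length, and the part of length in its change between groups was not tested. Cardiomyocyte markers were lower in the remote zone as well, 5 of 11 being called (median -0.54), and with their level as a covariate 18 of the 49 genes were called higher and none lower. The share of all genes called in that covariate fit is not given here, so its count is not read as particular to the family. The part of the markers in these counts was not tested. Without sham replicate 5, the lowest sham animal, 18 structural genes, all 7 core genes among them, and 4 assembly factor genes were lower, and 46.5% of all genes were called in either direction. Over the whole family, the 9 calls became 5 without sham replicate 2 or 4 or MI replicate 3 or 4, and 4 without MI replicate 5. They became 5 without a low-count filter, 4 without TMM scaling (1 of them higher) and 0 in a joint fit of all 54 libraries.

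The fall after MI was tested between zones with each animal as a block. It was larger in the infarct than in the remote zone for 35 of 36 structural genes and 7 of 8 assembly factor genes (15.3% of all genes tested were called in this direction), with a median difference of -1.69 for structural genes. Ndufb1 had the largest difference (-2.81 ± 0.35, adjusted p = 0.000561), with a median of 14.4 CPM in the infarct zone and 45.5 CPM in the remote zone of MI hearts. Ndufs1, which was low in both zones, had a difference of -1.30 (adjusted p = 0.0363). The structural gene that did not pass was Ndufv1 (-1.05, adjusted p = 0.0749), and the assembly factor was Ndufaf7 (-0.32, adjusted p = 0.189).

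Upstream sequences are shown for Ndufs1 and Ndufb1, which had the lowest and highest change of the structural genes in the remote zone, for Ndufa5, which had the largest structural change between sheet and sham hearts in the infarct and border zones, and for Ndufa4l2, which was called in no comparison. RefSeq windows of the GRCr8 build, 250 bases before the annotated start and 50 after it, matched 43 of the 53 genes, and both strands were searched for the NRF1 core GCATGCGC, the GABPA core CCGGAAG and the estrogen-related receptor site AAGGTCA. At least one of these stood in 16 of the 43 windows (37.2%) and in 15% of all 33469 windows, in 12 of 34 structural and in 4 of 7 assembly factor windows. The 250 bases before the start read 5′ to 3′ on the gene's strand, in lower case with a match in capitals:
Ndufs1, chr9:72073606-72073855, minus strand: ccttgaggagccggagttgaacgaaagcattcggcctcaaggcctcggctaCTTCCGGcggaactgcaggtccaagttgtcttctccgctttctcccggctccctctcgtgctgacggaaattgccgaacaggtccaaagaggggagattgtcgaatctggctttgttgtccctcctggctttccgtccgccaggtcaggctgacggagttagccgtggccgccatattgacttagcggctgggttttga
Ndufa5, chr4:53971236-53971485, minus strand: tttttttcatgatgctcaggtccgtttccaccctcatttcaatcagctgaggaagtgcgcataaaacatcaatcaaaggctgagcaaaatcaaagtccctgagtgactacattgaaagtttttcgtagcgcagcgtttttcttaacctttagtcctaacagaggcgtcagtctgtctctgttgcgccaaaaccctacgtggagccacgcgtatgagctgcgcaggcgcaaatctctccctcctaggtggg
Ndufb1, chr6:126888865-126889114, minus strand: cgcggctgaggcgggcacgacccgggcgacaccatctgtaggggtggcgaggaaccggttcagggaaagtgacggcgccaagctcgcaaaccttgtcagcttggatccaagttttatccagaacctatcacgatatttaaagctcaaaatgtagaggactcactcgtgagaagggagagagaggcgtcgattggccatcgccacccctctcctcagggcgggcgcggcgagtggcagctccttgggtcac
Ndufa4l2, chr7:65241919-65242168, plus strand: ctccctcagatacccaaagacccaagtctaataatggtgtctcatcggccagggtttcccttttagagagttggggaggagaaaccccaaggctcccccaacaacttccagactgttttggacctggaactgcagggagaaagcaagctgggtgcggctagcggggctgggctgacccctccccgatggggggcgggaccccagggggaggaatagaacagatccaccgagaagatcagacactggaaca
Ndufs1 carried the GABPA core on the opposite strand, beginning 199 bases before the start. The windows of Ndufa5, Ndufb1 and Ndufa4l2 had none of these 3 strings, which says only that these letters were not found there.

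**Figure D3:**
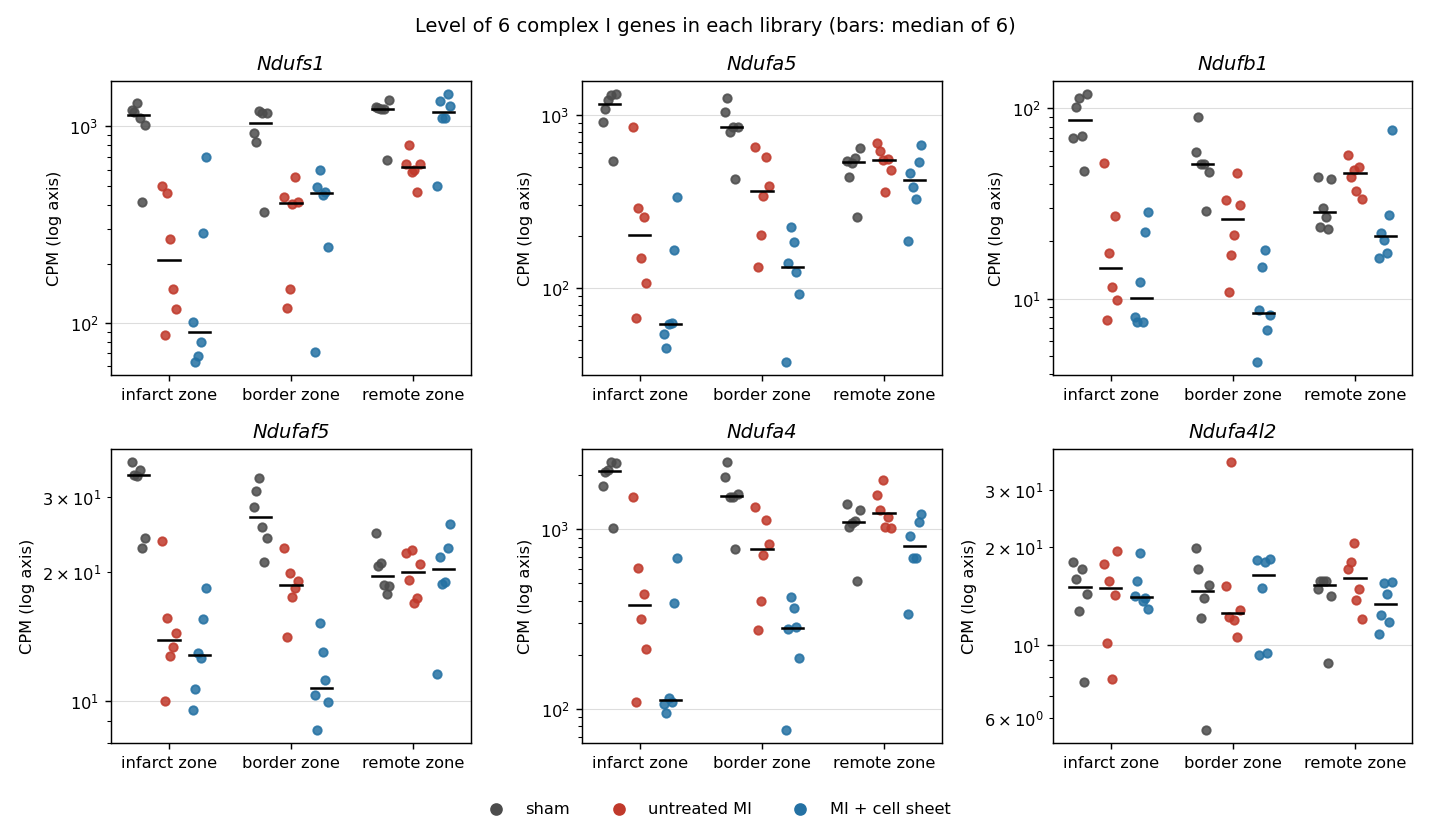
Levels of single genes. Each point is the CPM of one library on a log axis, for Ndufs1, Ndufa5, Ndufb1, Ndufaf5, Ndufa4 and Ndufa4l2 by zone (horizontal axis) and group (color), with the horizontal bar at the group median. In the remote zone Ndufs1 has medians of 1230 CPM in sham, 621 in MI and 1188 in MI + Cell Sheet, whereas Ndufb1 has 28.4, 45.5 and 21.2.

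The comparison of MI + Cell Sheet with untreated MI asks how hearts with a graft differed from hearts without one, and it uses the same MI libraries as the comparisons above. In the infarct zone no gene of the family was called by edgeR, none had an unadjusted p under 0.05, and 0% of all 16196 genes tested were called. DESeq2 called none either, with 4 at an unadjusted p under 0.05. The structural level was 6.06 ± 0.96 with the sheet (5.34 to 7.65) and 6.84 ± 0.93 without. The median change was -0.71 for structural and -0.39 for assembly factor genes, and each 95% interval of these genes included 0. The intervals were wide, as for Ndufa5, a subunit of the ubiquinone module (-1.25, interval -2.73 to 0.23).

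In the border zone, genes of the family were lower with the cell sheet than without it. Of 36 structural genes 8 were called lower and none higher, and 2 of 8 assembly factor genes were lower, where 18% of all genes tested were called, 9.48% as lower. All 8 structural calls were accessory genes. Ndufa5 had 133, 365 and 655 CPM in MI and 37.4, 132 and 226 in MI + Cell Sheet (-1.51 ± 0.45, adjusted p = 0.036), and Ndufa2 had 77.2, 166 and 255 CPM in MI and 27.2, 59.1 and 88.1 with the sheet (-1.46 ± 0.33, adjusted p = 0.010). In both genes the groups overlapped at the lower end of the MI animals. Ndufb1 fell from a median of 26.3 to 8.43 CPM (-1.39 ± 0.39, adjusted p = 0.027). The remaining 5, named after their values were seen, were Ndufs5 (-1.33), Ndufa6 (-1.32), Ndufa1 (-1.16), Ndufa7 (-1.15) and Ndufc2 (-1.08).

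No core gene was called there. Ndufs1 had 119, 408 and 554 CPM in MI and 70.7, 456 and 598 with the sheet (0.16 ± 0.48, adjusted p = 0.86), and Ndufv2 had a change of -1.14 (adjusted p = 0.091). Core minus accessory was 0.60 ± 0.11 in MI and 1.05 ± 0.22 with the sheet, ranging from 0.42 to 0.73 and from 0.68 to 1.29. Of the assembly factors, Ndufaf5 went from 14.1, 18.7 and 22.8 CPM to 8.57, 10.8 and 15.2 (-0.71 ± 0.15, 95% interval -1.04 to -0.38, adjusted p = 0.0079), with the highest sheet animal above the lowest MI animal. Ndufaf7, which had not changed detectably after MI in this zone, went from a median of 23.97 to 16.0 CPM (-0.47 ± 0.13, adjusted p = 0.029).

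None of the 11 cardiomyocyte markers was called in this comparison (median -0.20). With their level as a covariate more genes of the family were called than without it, as given in the closing section. Replicate 1 of the sheet group had a cardiomyocyte level of 4.04, the other 5 having a mean of 10.83 ± 0.63. Without it, 6 structural and 2 assembly factor genes were called lower, with a structural median of -0.67 (18.8% of all genes called in either direction). The 11 calls over the whole family became 3 without MI replicate 1 or 5 or sheet replicate 2 or 6, 4 without MI replicate 6 or sheet replicate 5, and 7 without MI replicate 4. Adipocyte markers had a median level of 4.58 with the sheet and -2.11 without, and 2 of 3 tested were called higher. Their part in the result was not tested, and markers of other cell types were scored but are not given here.

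In the remote zone Ndufs1 was the only gene of the family called, and it was higher with the cell sheet (17.1% of all genes tested were called, 10.3% as higher and 6.79% as lower). It had 465, 621 and 801 CPM in MI and 497, 1188 and 1455 with the sheet, 5 of 6 sheet animals lying at 1100 CPM or more and replicate 1 at 497 (0.84 ± 0.22, 95% interval 0.36 to 1.32, adjusted p = 0.025). The call was lost, at adjusted p-values of 0.0504 to 0.0634, when any of MI replicates 3, 4 and 5 or sheet replicates 2, 3 and 5 was left out, and also in a joint fit of all 54 libraries (adjusted p = 0.224). Ndufa10 (0.56 ± 0.21, adjusted p = 0.074) and Ndufv1 (0.53 ± 0.21, adjusted p = 0.089) missed the threshold, with intervals of 0.12 to 1.01 and 0.08 to 0.97. Ndufb1 lay on the other side (-0.59 ± 0.34, adjusted p = 0.24).

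The medians of the remote comparison were 0.04 for structural genes, 0.19 for core genes and 0.19 for assembly factor genes. Without replicate 1 of the sheet group, 9 structural genes (3 of them core) and 3 assembly factor genes were called higher and 1 other gene lower, with 41.6% of all genes called in either direction. With the cardiomyocyte level as a covariate, 1 gene was higher and 19 were lower. For that fit the share of all genes called is not given here, so these counts are not read as particular to the family. The markers themselves moved by a median of 0.42, 2 of 11 being called higher.

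Zones were also compared for the effect of the cell sheet. None of the Nduf genes and 0% of all genes were called by edgeR for infarct against remote, border against remote or border against infarct, with 9, 15 and 1 of them at an unadjusted p under 0.05. DESeq2 called 3, 6 and 0 genes of the family, and its share of all genes called is not given here. By the edgeR test, then, a call in one zone and not in another was not shown to be a difference between zones.

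Against sham, hearts with the sheet had lower levels in the infarct and border zones. All 36 structural and 8 assembly factor genes were called lower in both zones, where 29.2% and 23.2% of all genes tested were called lower. The median structural changes were -2.34 and -2.13, and the largest was that of Ndufa5 (-3.14 ± 0.54, adjusted p = 0.00065 in the infarct and -2.72 ± 0.40, adjusted p = 0.00025 in the border zone). In the border zone 30 of 36 structural genes and 7 of 8 assembly factor genes had all 6 sheet animals below all 6 sham animals, as had 10.1% of all genes tested. In the infarct zone the numbers were 20 and 7, against 9.22% of all genes. For untreated MI below sham, the infarct zone had 1 of 36 structural and 0 of 8 assembly factor genes (5.39% of all genes). The border zone had 0 of 37 and 1 of 8 (4.95% of all genes).

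In the remote zone no gene of the family was called between MI + Cell Sheet and sham by edgeR or DESeq2, none had an unadjusted p under 0.05, and 0.0066% of all genes were called. The structural median was -0.21 (range -0.45 to 0.11) and the assembly factor median -0.04. Ndufs1 had a change of -0.07 with a 95% interval of -0.57 to 0.44, and the intervals over all structural genes reached from -0.96 (Ndufb7) to 0.70 (Ndufb1). These intervals leave room for changes as large as some of those called between MI and sham in this zone, and both comparisons use the same sham libraries.

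**Figure D4:**
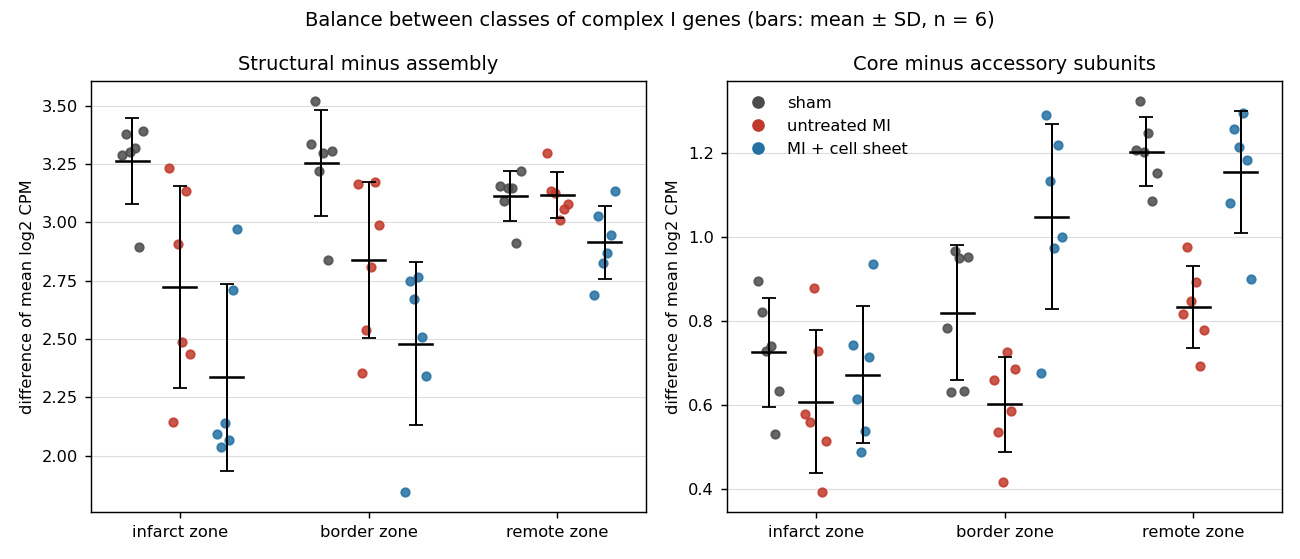
Balance between classes by library. Points are single libraries, plotted as the structural minus the assembly factor level and as the core minus the accessory level (both on the log2 scale) for each zone and group, with bars at the group means and 1 SD (n = 6). Structural minus assembly goes from a mean of 3.26 in sham to 2.72 in MI and 2.34 in MI + Cell Sheet in the infarct zone, and core minus accessory in the remote zone is lowest in MI, at a mean of 0.83.

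The balance between structural subunits and assembly factors is given as a description, with no test. The structural minus the assembly factor level was 3.26 ± 0.18 in sham, 2.72 ± 0.43 in MI and 2.34 ± 0.40 in MI + Cell Sheet in the infarct zone (SD, n = 6 each). The border zone had the same order, at 3.25 ± 0.23, 2.84 ± 0.34 and 2.48 ± 0.35. In the remote zone the values were 3.11 ± 0.11, 3.12 ± 0.10 and 2.91 ± 0.16. The infarct ranges of sham (2.89 to 3.39) and MI (2.14 to 3.23) overlapped, and the assembly factor level itself fell from 5.45 ± 0.33 to 4.12 ± 0.57.

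**Figure D5:**
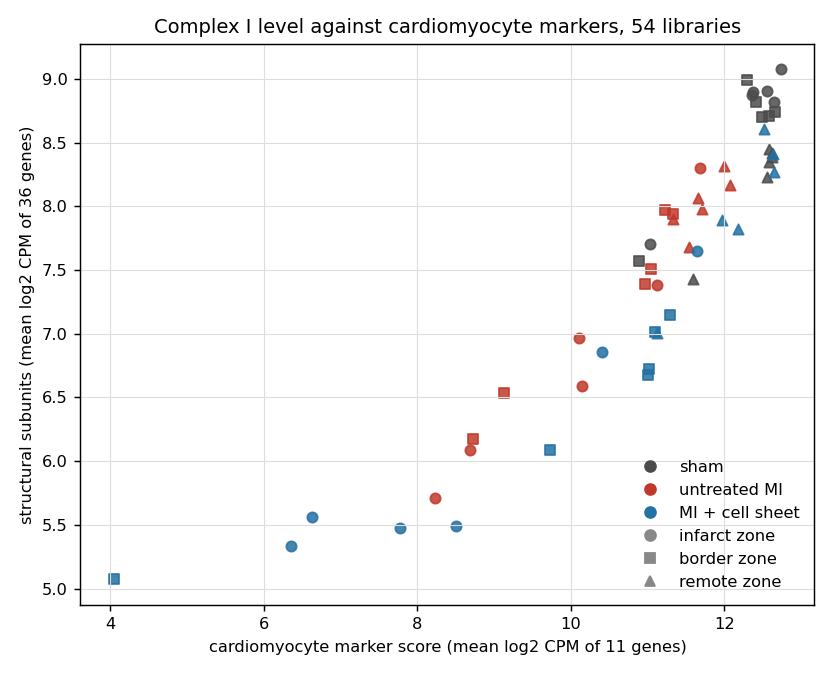
Structural level against cardiomyocyte level. Each point is one of the 54 libraries, with the mean log2(CPM + 0.1) of 11 cardiomyocyte markers on the horizontal axis and that of the 36 structural genes on the vertical axis, with color for the group and shape for the zone. Libraries low on one axis tend to be low on the other, and the border piece of MI + Cell Sheet replicate 1 lies at a cardiomyocyte level of 4.04.

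Of the remaining matches, Ndufa4 was first named as a complex I protein and is now assigned to cytochrome c oxidase. Its CPM in the border zone was 781, 1540 and 2360 in sham, 276, 773 and 1330 in MI and 76.4, 283 and 419 with the sheet, and it was lower in MI than in sham (-1.04, adjusted p = 0.043) and lower with the sheet than in MI (-1.53 ± 0.44, adjusted p = 0.031). Ndufa4l2, its hypoxia-inducible relative, had medians of 12.5 to 16.5 CPM in all 9 groups and was called in no comparison, with -0.02 ± 0.25 in the infarct zone for MI against sham (adjusted p = 0.96). The paralog Ndufa10l1 and the pseudogene Ndufv3-ps1, whose reads could be shared with Ndufa10 and Ndufv3, were lower in MI than in sham in the infarct zone (-1.37 and -1.60), and in the border zone Ndufv3-ps1 was lower (-1.53) while Ndufa10l1 missed the threshold (-1.07, adjusted p = 0.052). Ndufs5-ps1 was tested only for MI against sham in the remote zone (0.38, adjusted p = 0.63).

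Genes that work with the family were counted from lists, to be read against the 27.2%, 23.2% and 14.2% of all genes that were called lower in MI than in sham in the infarct, border and remote zones. Of 12 further assembly factor genes, 12 were lower in MI than in sham in the infarct zone (median -1.11) and again 12 in the border zone (-0.77), whereas the remote zone had 4 (-0.30). Those 4, named after their values were seen, were Acad9 (-0.44), Aifm1 (-0.65), Ecsit (-0.64) and Dmac2 (-0.40). Of these 12, Acad9 (0.53) and Aifm1 (0.57) were called higher with the sheet than in MI in the remote zone, as were 10.3% of all genes. Tmem126b (-0.64) was called lower with the sheet in the border zone, as were 9.48% of all genes.

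Of 8 regulators of mitochondrial genes, 6 were lower in MI than in sham in the infarct zone, where 27.2% of all genes were. They were the coactivators Ppargc1a (-2.05) and Ppargc1b (-1.91), the nuclear receptors Ppara (-1.93), Esrrg (-1.73) and Esrra (-1.33), and Tfam (-1.02), which maintains mitochondrial DNA, whereas Nrf1 (0.23) and Gabpa (-0.18) were not called. In the remote zone 5 were lower (14.2% of all genes), among them Ppargc1b (-1.23) and Ppara (-1.07). Ppargc1b (1.28), Ppara (1.19) and Esrra (0.87) were higher with the sheet than in MI there (10.3% of all genes), whereas in the border zone Tfam was lower with the sheet (-0.58, adjusted p = 0.033) and no other regulator was called. The remote result comes from a comparison that shares its MI libraries with the one against sham.

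The other respiratory chain complexes were counted in the same way. All 39 listed genes of complexes II to V were lower in MI than in sham in the infarct zone (median -1.70), likewise all 39 in the border zone (-1.23), whereas the remote zone had 11 (-0.33, with 14.2% of all genes lower). The structural level minus that of complexes II to V had group means between -1.25 and -1.15 over the 9 groups. Among mitochondrial ribosomal protein genes, 71 of 73 tested were lower in the infarct zone, with a median of -1.06. With the sheet, 10 of 39 genes of complexes II to V and 32 of 73 mitochondrial ribosomal protein genes were lower than in MI in the border zone, as were 9.48% of all genes.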

How the data were processed

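Poly(A) RNA from 3 zones of 18 rat hearts was sequenced as paired ends. The authors aligned the reads with STAR to mRatBN7.2 and deposited raw counts per gene for each library. Counting software and strand setting are not given in the sources used here, so overlapping or antisense genes, paralogs and pseudogenes are uncertain. The 5 summary lines of each table, 17.0% to 42.8% of its counts, were left out. The line for reads in no annotated gene differed between groups. Its mean share in the infarct zone was 28.2% in sham, 17.8% in MI and 13.0% in MI + Cell Sheet. The border means were 28.2%, 18.6% and 16.7% and the remote means 29.4%, 31.2% and 23.1%, in the same order. The part of this share in the results was not tested. Within each zone the groups were compared with the quasi-likelihood F test of edgeR 4.0.16 (R 4.3.3) after its default low-count filter and TMM scaling, with Benjamini-Hochberg adjustment over all genes tested. Differences between zones were fitted with the animal as a block. Intervals are 95% t intervals of the fit. Alternatives were DESeq2 1.42.0, other filters and scaling, single libraries left out, a replicate block, a joint fit of all 54 libraries and a cardiomyocyte covariate. The tests were checked on counts simulated with a single spread for all genes and no shift shared by the genes of an animal. That check does not measure their error rates in these libraries. Members and lists were chosen with earlier results of these data known. The values of 1 gene are not reported here on its own. Genes were named by fixed rules: the core genes, Ndufaf1 to Ndufaf8, Ndufa4, Ndufa4l2, the structural genes (mean log2 CPM of at least 1) with the highest and lowest change in each pairwise comparison, the structural gene or factor not called where most were, and genes called for the sheet in the remote zone.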

Additional observations from a re-analysis of the deposited data

Results flagged for a closer look

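With 6 animals a group, a library was noted when its gap to the nearest animal took up most of the range of the group (Dixon's criterion), which chance gives in about 1 in 20 groups. Of 63 class levels examined, 18 had such a library, and of 216 sets of 6 values from the 24 named genes, 51 did. The 18 came from sham replicate 5 and replicate 1 of the MI + Cell Sheet group only. Levels and genes share animals, and some levels share genes, so these counts cannot be read against that rate. Sham replicate 5 lay below the other sham animals in the infarct, border and remote zones: its structural level was 7.70, 7.57 and 7.43, its core level 8.13, 8.08 and 8.30, its accessory level 7.60, 7.45 and 7.22, its assembly factor level 4.81, 4.73 and 4.52, and its cardiomyocyte marker level 11.03, 10.89 and 11.59. Its structural minus assembly value in the infarct zone was 2.89. It stood apart for 14, 13 and 16 named genes in these zones.

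Replicate 1 of the MI + Cell Sheet group had a cardiomyocyte marker level of 4.04 in the border zone and a core level of 7.87 in the remote zone, where it stood apart for 5 named genes. Apart from these animals, 3 single values of named genes stood apart. The fall after MI differed between the infarct and the remote zone for 45 genes of the family by the interaction test.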

How the results depend on the processing

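Counts are genes of the family past the threshold. The shares of all genes called under the settings of this paragraph are not given here, so a changed count is not by itself a result about the family. With the cardiomyocyte level as a covariate MI against sham gave 0 (infarct), 1 (border) and 18 (remote), the remote direction turning to higher. Under the same covariate, 27 genes were called for the sheet against MI in the border zone, 20 in the remote zone, where the direction turned to lower, and 10 for the sheet against sham in the infarct zone. The covariate also turned single values: Ndufb2 (0.169) and Ndufb7 (0.0026) in the infarct zone, Ndufa4 (0.120) and Ndufa2 (0.0226) in the border zone, and Ndufv2 (0.563) in the remote zone for MI against sham, and Ndufs3 (-0.508) for the sheet against MI in the remote zone. Without a filter the counts were 5 for MI against sham in the remote zone and 7 for the sheet against MI in the border zone. Without TMM scaling they were 4 and, for the sheet against MI in the remote zone, 2, and the median of all genes for MI against sham in the infarct zone moved from -0.02 to 0.24 on the log2 scale. In a joint fit of all 54 libraries both remote counts were 0. DESeq2 called 3 for the sheet against MI in the remote zone, and 3 and 6 for the sheet effect in the infarct and border zones against the remote zone. The cause of these changes was not tested.

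Leaving out one animal gave 45 to 47, 41 to 48 and 4 to 22 genes for MI against sham in the infarct, border and remote zones, 0 to 0, 3 to 15 and 0 to 13 for the sheet against MI, 47 to 47, 45 to 49 and 0 to 0 for the sheet against sham, and 42 to 47 for the zone difference of the MI effect. The remote count for MI against sham was 22 without sham replicate 5. For the sheet against MI, the border count was 15 without MI replicate 2, and the remote count was 0 without MI replicate 3, 4 or 5 or sheet replicate 2, 3 or 5, 2 without sheet replicate 6 and 13 without sheet replicate 1. Same-numbered animals did not deviate together consistently, with correlations from -0.734 to 0.611 between single pairs. A replicate block gave 25 genes for MI against sham in the border zone. For the sheet against MI the block gave 1 and 0 genes in the border and remote zones, and Ndufs1 had an adjusted p = 0.0869 in the remote zone. The call of Ndufaf5 for the sheet against MI in the border zone held under every alternative run.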
